A study of Mus musculus with 12 samples.

Results

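Hind limb skeletal muscle of mice without thymidine kinase 2 (Tk2-/-) was compared with that of wild-type mice (Tk2+/+) on expression arrays. The comparison used 6 of the 12 arrays of the series, chosen by the labels of tissue and genotype: 3 from Tk2-/- and 3 from Tk2+/+ skeletal muscle. All 6 mice were C57BL/6 and 11 days old, and came from matings of heterozygous Tk2+/- mice, with a different mouse behind each array. The knockout is carried by every cell of the animal from conception, and the RNA was extracted from whole tissue, so fibres, satellite cells, fibroblasts, vessels, nerve, fat and blood were read together. The other 6 arrays, from the hearts of mice of the same genotypes and age, entered the model only through the shared estimate of the spread between arrays, apart from the differences between tissues given where they are named. Each array gave 1 signal per gene for 18820 genes (the brightest probe set of each gene symbol), a normalized fluorescence intensity in arbitrary units. Differences are given as log2(signal + 16) in Tk2-/- minus Tk2+/+ muscle, and a gene was called higher or lower when its p-value from limma, a linear model with a moderated variance, was under 0.05 after Benjamini-Hochberg adjustment over all genes.

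Thymidine kinase 2 is a mitochondrial enzyme that phosphorylates thymidine and deoxycytidine, a step by which mitochondria of non-dividing cells renew the nucleotides needed to copy mitochondrial DNA. Loss of the enzyme lowers mitochondrial DNA copy number, and inherited TK2 deficiency in humans is known mainly as a disease of skeletal muscle. Postnatal mouse muscle grows both by the enlargement of fibres and by the fusion of dividing progenitors, the satellite cells, into them, and it loses mass when ubiquitin ligases, the proteasome and autophagy break down fibre proteins faster than they are made.

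The Tk2 probe set read 62.9, 68.5 and 63.1 in the 3 Tk2+/+ arrays and 64.7, 44.1 and 48.7 in the 3 Tk2-/- arrays (log2 difference -0.25, SE 0.13, adjusted p = 0.208). The ranges of the genotypes overlapped and the difference did not pass the threshold, and since no source used here tells whether the probes match the deleted stretch, this value does not check the labels. The labels therefore stand on the submitters' word. The mean signal per array lay between 201.8 and 252.4 with no separation by genotype, and Pearson's r of the log2 values over all genes was 0.990 to 0.994 between arrays of a genotype and 0.955 to 0.975 between genotypes, a description over genes that share their array. Both genotypes held mice of both sexes by Xist and Y-linked genes (1 female among 3 Tk2+/+ and 2 females among 3 Tk2-/- mice), and the part of sex in the results was not tested.

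Of the 18820 genes, 2179 (11.6%) were higher and 2050 (10.9%) were lower in Tk2-/- muscle. After quantile normalization, which gives the 6 arrays one common distribution, 2616 (13.9%) were higher and 2785 (14.8%) lower; 2109 of the genes called higher and 2022 of those called lower were called in the same direction both times, and none was called in opposite directions. The balance of directions depended on scaling, since centring each array on its median gave 3357 higher and 1780 lower genes. Leaving out the second Tk2-/- array gave 1359 lower genes, against 2050 with all arrays. At least 2-fold differences were seen for 324 higher genes (1.72%) and 335 lower genes (1.78%), and 4-fold differences for 55 higher and 34 lower genes. All 3 Tk2-/- arrays lay above all 3 Tk2+/+ arrays for 3181 genes (16.9%) and below them for 3543 genes (18.8%). The median log2 difference over all genes was -0.02, and from the 5th to the 95th percentile the differences ran from -0.62 to 0.61.

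**Figure D1:**
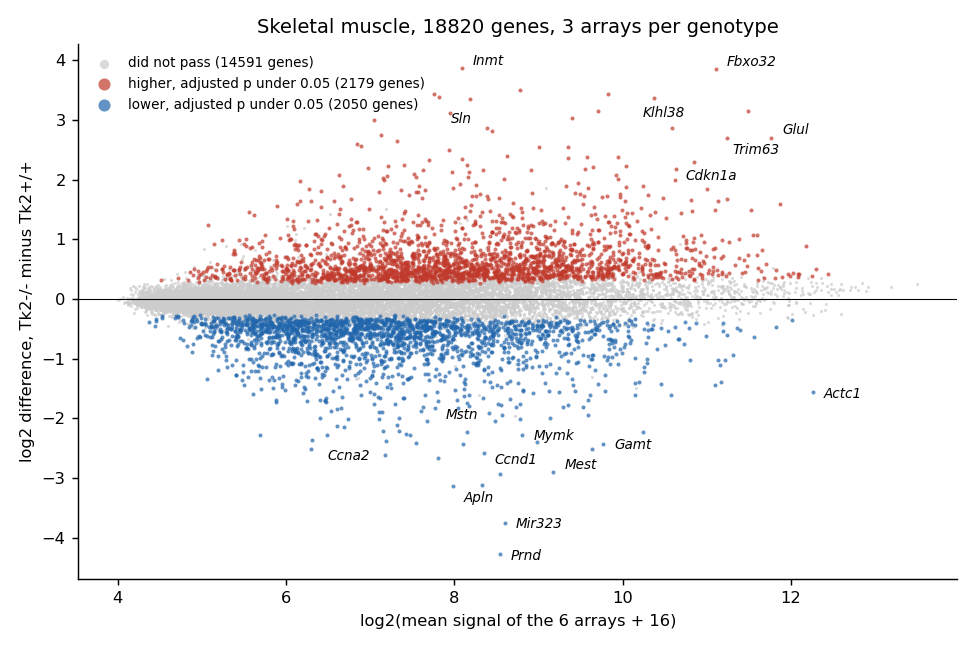
Log2 difference between Tk2-/- and Tk2+/+ skeletal muscle (vertical axis) against log2 of their mean signal plus 16 (horizontal axis), 1 point per gene for 18820 genes, with genes called higher (2179) in red and lower (2050) in blue. The largest named differences were those of Inmt (3.87) and Fbxo32 (3.85) above 0 and of Prnd (-4.28) below it.

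The genes that supply nucleotides for DNA synthesis were mostly lower or did not pass the threshold. Some of them were reported by the study from these same arrays, so their direction is not independent evidence. By real-time qPCR the study also reported lower cell cycle dependent genes of this group, Tk1 and Dck among them, in Tk2-/- muscle. With the same method it reported higher Rrm2b in Tk2-/- skeletal muscle, a rise not seen in the array values below. Of the list for dNTP supply, 1 of 31 were higher, 7 were lower and 23 did not pass the threshold (median log2 difference -0.22), against 11.6% higher and 10.9% lower over all genes; 12 were lower after quantile normalization. Dctd, the deaminase that turns dCMP into dUMP, had signals of 222, 174 and 149 in Tk2+/+ and 65.5, 39.0 and 46.0 in Tk2-/- arrays (log2 difference -1.58, SE 0.19, adjusted p = 3.30e-05). The 3 Tk2-/- arrays lay far below the lowest Tk2+/+ array. Dtymk, which makes dTDP from dTMP, fell by 0.82 on the log2 scale (adjusted p = 0.00117), Rrm1, the large subunit of ribonucleotide reductase, by 0.76 (adjusted p = 0.00566), Dut, which removes dUTP, by 0.72 (adjusted p = 0.00351) and Dck, the cytosolic deoxycytidine kinase, by 0.62 (adjusted p = 0.00295). Tk1, the cytosolic thymidine kinase of dividing cells, read 73.5, 58.0 and 48.7 in Tk2+/+ and 36.2, 46.5 and 37.4 in Tk2-/- arrays; the groups did not overlap but the test was not passed (log2 difference -0.43, adjusted p = 0.0988). Neither small subunit of ribonucleotide reductase passed: Rrm2, made in S phase, had a log2 difference of 0.48 (adjusted p = 0.314) and Rrm2b, its counterpart in resting cells, one of -0.02 (adjusted p = 0.962). Of the 4 other genes of the mitochondrial salvage pathway, Dguok, Nt5m, Nme4 and Cmpk2, none passed with the deposited scaling, and all but Cmpk2 were lower after quantile normalization. The first of them is the mitochondrial purine kinase (log2 difference -0.37, adjusted p = 0.0625).

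**Figure D2:**
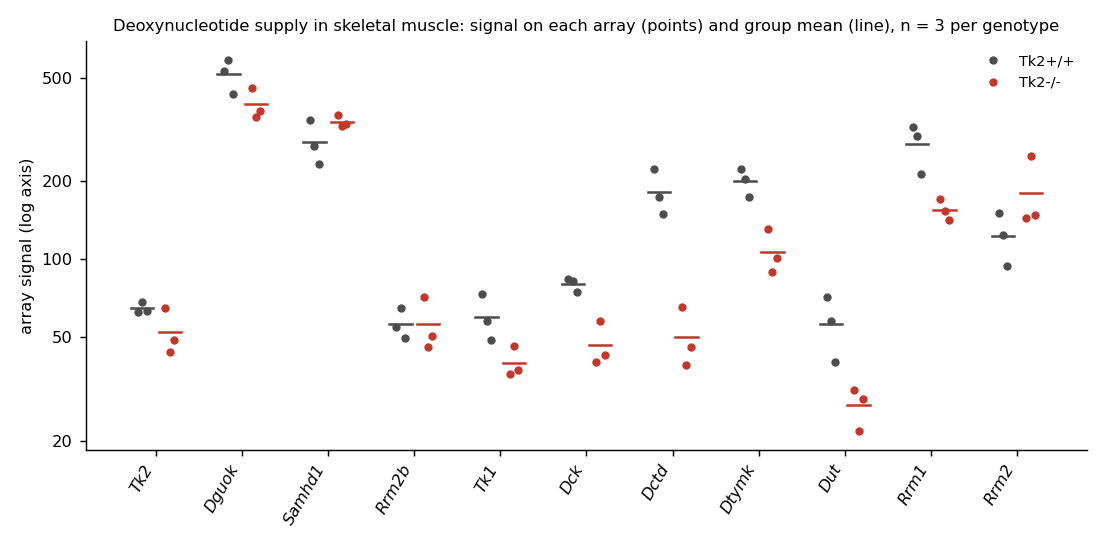
Signal on each array (log axis, arbitrary units) of genes that supply nucleotides for DNA synthesis in Tk2+/+ and Tk2-/- skeletal muscle; points are arrays (3 per genotype) and lines are means. Dctd, Dtymk, Rrm1, Dut and Dck had all Tk2-/- arrays below all Tk2+/+ arrays, while Tk2 and Rrm2b overlapped.

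Of the nuclear genes that keep and copy mitochondrial DNA, 6 higher and 3 lower of 27 measured passed, against 11.6% higher and 10.9% lower over all genes (3 higher without the second Tk2-/- array and 5 lower after quantile normalization). Polg, the catalytic subunit of the mitochondrial DNA polymerase, was higher, at 137, 132 and 116 in Tk2+/+ and 176, 181 and 156 in Tk2-/- arrays (log2 difference 0.37, SE 0.11, adjusted p = 0.0214). Its groups did not overlap, but the test was not passed without the third Tk2+/+ array or without the first or the second Tk2-/- array (adjusted p from 0.0637 to 0.0939). Slc25a33, a mitochondrial pyrimidine nucleotide carrier, rose by 0.77 and Fbxl4, a ligase component that limits mitophagy, by 0.59 on the log2 scale, while Primpol, a primase that restarts stalled DNA synthesis, fell by 0.83. Tfam, which packages mitochondrial DNA, did not pass the threshold (log2 difference 0.24, adjusted p = 0.345). The nuclear subunits of the respiratory chain had few members past the threshold: 2 higher and 3 lower of 77 measured, with a median log2 difference of 0.08. After quantile normalization 12 of them were lower, and without the second Tk2+/+ array 11 were higher, so these counts depended on the scaling and on that array. The 53 cytosolic ribosomal protein genes had no member called either way. Genes encoded by mitochondrial DNA itself were not analysed here.

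The genes that carry out protein breakdown in wasting muscle were raised in part, among them some ubiquitin ligases, which mark fibre proteins for the proteasome. Of 17 ligases measured, 8 were higher, 1 was lower and 8 did not pass (median log2 difference 0.30). Over all genes, 11.6% were higher and 10.9% lower. Fbxo32 (atrogin-1) had signals of 228, 270.0 and 314 in Tk2+/+ and 3759.9, 4787 and 3753 in Tk2-/- arrays, a 15.2-fold difference of mean signals (log2 difference 3.85, SE 0.13, adjusted p = 1.34e-10). Trim63 (MuRF1), which binds sarcomere proteins, read 558, 769 and 550.1 against 3542, 5192 and 3774 (log2 difference 2.70, SE 0.15, adjusted p = 1.86e-08). For both ligases every Tk2-/- array lay several-fold above every Tk2+/+ array, and the second Tk2-/- array was the highest. Of the muscle atrophy list, 18 of 33 were higher, 3 were lower and 12 did not pass the threshold (median log2 difference 0.66). Klhl38, a kelch-family gene, rose by 2.87, and the transcription factors Cebpd by 2.81, Foxo1 by 1.53 and Foxo3 by 1.26 on the log2 scale (adjusted p from 2.23e-09 to 2.18e-06). Not all members rose. Mstn, the secreted inhibitor of muscle growth, was lower, at 463, 699 and 414 in Tk2+/+ and 153, 98.8 and 125 in Tk2-/- arrays (log2 difference -1.92, SE 0.18, adjusted p = 4.15e-06), with no overlap.

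Proteasome genes rose in part and by small amounts, with 23 higher and 3 lower of 44 measured and a median log2 difference of 0.38; 14 were higher without the first Tk2+/+ array and 13 without the third Tk2+/+ or the second Tk2-/- array, and without the third Tk2+/+ array 6 were lower. In the 20S core, the barrel that cuts proteins, 11 higher and 0 lower of 13 passed; without the first Tk2+/+ array 6 were higher, and without the third Tk2+/+ array or the second Tk2-/- array 5 were. Psmd4, a ubiquitin receptor of the 19S cap, read 542, 648 and 483 in Tk2+/+ and 1049.6, 1148 and 1053 in Tk2-/- arrays (log2 difference 0.95, SE 0.12, adjusted p = 5.79e-05). The immunoproteasome subunits did not share this direction, with 0 higher and 1 lower of 3 measured. In the list of autophagy and lysosome genes 24 of 41 were higher, 4 were lower and 13 did not pass the threshold (median log2 difference 0.47). The largest of these was Gpnmb, a lysosomal membrane glycoprotein, at 9.56, 21.5 and 23.1 against 132, 187 and 245 (log2 difference 2.57, SE 0.20, adjusted p = 6.68e-07); Cd68, a lysosomal protein of macrophages, also rose (log2 difference 0.94, adjusted p = 2.96e-05). Bnip3, a receptor for the removal of mitochondria, rose by 1.84, Gabarapl1 and Map1lc3b, which coat the autophagosome, by 1.73 and 0.96, the protease Ctsl by 1.64 and the cargo receptor Sqstm1 by 1.07 on the log2 scale.

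**Figure D3:**
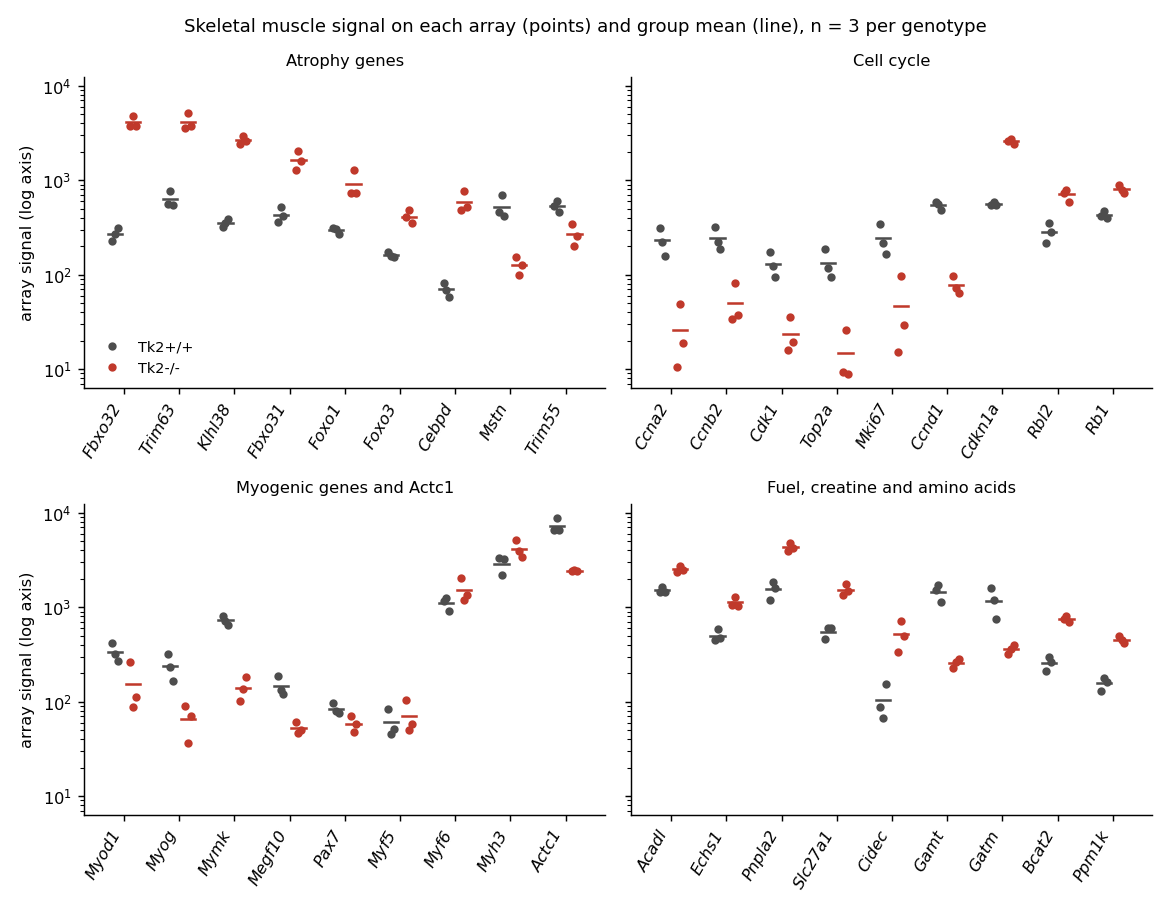
Signal (vertical log axis, arbitrary units) of atrophy, cell cycle, myogenic and fuel genes on each of the 3 Tk2+/+ (grey) and 3 Tk2-/- (red) skeletal muscle arrays, with points for arrays and lines for means. Fbxo32, Trim63 and Cdkn1a lay above, and Mstn, Ccna2, Mymk and Gamt below, the wild-type arrays in all 3 Tk2-/- arrays.

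Genes of insulin and IGF signaling split between more receptor-side and adaptor transcripts and less IGF-I. Of the list, 17 of 38 were higher, 7 were lower and 14 did not pass the threshold (median log2 difference 0.25); insulin signaling is among the pathways the study named from these arrays, so the direction of this list is not independent evidence. Igf1, the muscle growth factor, had signals of 879, 1041 and 849 in Tk2+/+ and 526, 415 and 363 in Tk2-/- arrays (log2 difference -1.07, SE 0.16, adjusted p = 1.75e-04), and all Tk2-/- arrays were lower. Igf2, the fetal growth factor, was at 4326, 4756 and 4021 and 4024, 4301 and 4154, with overlap (log2 difference -0.07, adjusted p = 0.831). Among the proteins that bind IGFs, Igfbp3 rose by 1.70 and Igfbp5 fell by 1.60 on the log2 scale. Insr, the insulin receptor, rose by 0.73, its adaptor Irs2 by 1.37 and the kinase subunit Pik3r1 by 1.71, while the adaptor Irs1 fell by 0.72. Ddit4 (REDD1), an inhibitor of the growth kinase mTORC1, read 141, 109 and 137 in Tk2+/+ and 997, 1571 and 1011 in Tk2-/- arrays (log2 difference 3.03, SE 0.18, adjusted p = 4.42e-08), and its lowest Tk2-/- signal was several times its highest Tk2+/+ signal.

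Genes that take up, release and burn fat were raised. In fatty acid oxidation, 17 of 28 were higher, 0 were lower and 11 did not pass the threshold (median log2 difference 0.49); 11 were higher without the first Tk2+/+ array or without the second Tk2-/- array. In the list of fatty acid uptake, storage and PPAR regulators, 25 of 35 were higher, 4 were lower and 6 did not pass the threshold (median log2 difference 0.73); the study named PPAR signaling and fatty acid oxidation from these same arrays, so neither list is independent evidence of its direction. Pnpla2, the lipase that starts the breakdown of stored fat, read 1192, 1840.5 and 1597 in Tk2+/+ and 3957, 4767 and 4222 in Tk2-/- arrays (log2 difference 1.49, SE 0.15, adjusted p = 5.36e-06). Acot1, a cytosolic acyl-CoA thioesterase, was at 19.7, 29.4 and 18.1 and 87.0, 114 and 109 (log2 difference 1.64, SE 0.16, adjusted p = 5.50e-06). Neither gene's groups overlapped. Within beta-oxidation, Echs1 rose by 1.15, Acadl by 0.73 and Acadm by 0.68; among transporters, Slc27a1 rose by 1.45, Lpl, which frees fatty acids from lipoproteins, by 0.99 and Cd36 by 0.73 on the log2 scale. Pdk4, which holds back pyruvate oxidation, rose by 0.89, whereas Ppargc1a, the coactivator of mitochondrial biogenesis, fell by 0.48 and Ucp3, a mitochondrial carrier of oxidative muscle, by 0.75. The call of Ppargc1a was lost without the second or the third Tk2+/+ or the third Tk2-/- array (adjusted p from 0.0505 to 0.0725) and that of Ucp3 without the second Tk2+/+ or the second Tk2-/- array (adjusted p = 0.0828 and 0.121). White adipocyte markers gave 7 higher and 1 lower of 11 measured (summed signal 6357 to 7594 in Tk2+/+ and 9993 to 10887 in Tk2-/- arrays). Adipoq, an adipocyte hormone, rose (log2 difference 1.35, adjusted p = 0.00243) and Lep (leptin, picked after its values were seen) fell (log2 difference -0.63, adjusted p = 6.14e-04). The markers share members with the uptake and storage list, the largest rise of both (2.16) included, so these counts are not independent. The part of adipocytes in the fatty acid lists was not tested. In whole-tissue RNA, fewer cells of a type and less RNA per cell cannot be told apart, here and in the results that follow.

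The breakdown of branched-chain amino acids, a fuel that muscle can burn, was examined after its values were seen, with a list of 23 genes of which 22 were measured. Of these, 14 were higher, 0 lower and 8 did not pass (median log2 difference 0.55), and the count higher was 12 to 15 when single arrays were left out. Bcat2, the mitochondrial transaminase of the first step, read 209.7, 299.9 and 265 in Tk2+/+ and 749.6, 807 and 698 in Tk2-/- arrays (log2 difference 1.5, SE 0.13, adjusted p = 1.48e-06). The dehydrogenase subunits Bckdha and Bckdhb rose by 1.30 and 1.13 and the phosphatase that activates them, Ppm1k, by 1.45 on the log2 scale. Glycolysis, glycogen and the TCA cycle had 9 higher and 3 lower of 42 measured, against 11.6% higher and 10.9% lower over all genes, and 8 were lower after quantile normalization.

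Both enzymes that make creatine, the energy buffer of muscle, were lower. Gamt, the enzyme of the final methylation step, had signals of 1512, 1714 and 1143 in Tk2+/+ and 225, 262 and 279.8 in Tk2-/- arrays (log2 difference -2.42, SE 0.17, adjusted p = 1.61e-07). Gatm, which makes its substrate, read 1581, 1191 and 748 against 318, 360.1 and 399.8 (log2 difference -1.61, SE 0.24, adjusted p = 1.65e-04). For both genes the highest Tk2-/- array lay well under the lowest Tk2+/+ array. Ckm, the muscle creatine kinase, did not pass (log2 difference 0.15, adjusted p = 0.455). Other methyltransferases rose from low wild-type signals: Gnmt, the glycine methyltransferase, from 12.3, 13.5 and 10.7 to 144, 327 and 190.1 (log2 difference 2.99, adjusted p = 2.02e-07), and Inmt, an amine methyltransferase, by 3.87 on the log2 scale, the largest increase of any gene with separated groups. Wild-type signals under the offset of 16, as for Gnmt, make the log2 difference smaller than the ratio of signals.

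Stress-response genes rose in several branches. Some of these lists share members with other lists, so their counts are not independent. Ddit4 is in the hypoxia, p53 and insulin lists, and the glucocorticoid and acute phase lists have the same largest rise (3.38). Of 26 targets of the glucocorticoid receptor, 22 were higher and 1 lower, also with any single array left out, while Nr3c1, the receptor, did not pass (log2 difference 0.01, adjusted p = 0.988). Among metallothionein and antioxidant genes 23 higher and 3 lower of 36 passed, with Hmox1, which breaks down haem, at 89.6, 91.8 and 87.0 in Tk2+/+ and 382, 712 and 266 in Tk2-/- arrays (log2 difference 2.04, SE 0.24, adjusted p = 2.39e-05), the secreted peroxidase Gpx3 at a log2 difference of 2.0 and the quinone reductase Nqo1 at 1.64. In the circadian clock list 9 higher and 1 lower of 16 passed; the repressor gene Per1 rose by 1.78 and the activator gene Rora by 1.46 on the log2 scale, and no source used here gives the hour of dissection. The hypoxia list gave 9 higher and 3 lower of 21, with Ddit4, described above, and Egln3, an oxygen-sensing hydroxylase (2.30), furthest up, while Vegfa, the vessel growth factor, fell by 0.81.

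Genes that answer mitochondrial stress or amino acid shortage through the factor Atf4 did not move as a block. Of this list, 10 of 33 were higher, 4 were lower and 19 did not pass the threshold (median log2 difference 0.21); 6 were higher without the first Tk2+/+ array and 5 without the second Tk2-/- array. Chac1, which degrades glutathione, read 250.4, 294 and 222 in Tk2+/+ and 1155, 1180.2 and 1299 in Tk2-/- arrays (log2 difference 2.18, SE 0.12, adjusted p = 1.55e-08), and Cth, which makes cysteine, 38.6, 41.7 and 47.9 and 246, 275 and 268 (log2 difference 2.25, SE 0.11, adjusted p = 6.47e-09), both without overlap. Asns, asparagine synthetase, rose less evenly, from 64.2, 73.5 and 69.9 to 76.4, 175 and 126 (log2 difference 0.67, SE 0.19, adjusted p = 0.0169), with the first Tk2-/- array close to the Tk2+/+ range, and its call was lost without the first Tk2+/+, the second Tk2-/- or the third Tk2-/- array (adjusted p from 0.0543 to 0.0944). Aldh18a1, of proline synthesis, fell by 1.30, and Fgf21, the hormone released from muscle with mitochondrial defects, did not pass (log2 difference -0.07, adjusted p = 0.868). The amino acid response element through which Atf4 acts, searched as TGATGNAAN on both strands between 250 bases before and 50 bases after the RefSeq start, was found in 8 of 27 promoters of this list (29.6%) and in 3.13% of the 14749 promoters of all genes tested. The list was chosen around Atf4, so its share is a property of the list and not a result of these arrays. The share was 2.17% for all genes called higher and 3.10% for those at least 2-fold higher. The promoters of Chac1 and Asns, members that rose and hold the element, are shown as the 250 bases before the start (RefSeq, GRCm38.p6), read 5′ to 3′ on the gene's strand, with the element in capitals. A match is a description of these letters only.
Chac1 chr2:119350992-119351241, plus strand: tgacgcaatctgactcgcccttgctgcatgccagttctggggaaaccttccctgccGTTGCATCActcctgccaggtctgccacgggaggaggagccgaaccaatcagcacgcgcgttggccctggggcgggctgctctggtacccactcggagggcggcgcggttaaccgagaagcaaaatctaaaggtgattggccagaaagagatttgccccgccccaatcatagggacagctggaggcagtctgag
Asns chr6:7693210-7693459, minus strand: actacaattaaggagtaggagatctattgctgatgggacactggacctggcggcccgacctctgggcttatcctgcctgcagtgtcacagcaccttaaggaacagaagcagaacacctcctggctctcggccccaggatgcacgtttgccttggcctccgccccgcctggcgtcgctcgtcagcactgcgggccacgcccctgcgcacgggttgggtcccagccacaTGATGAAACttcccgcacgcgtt

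Targets of p53, the damage-response factor, were higher as a list, and the gene for p21 was among them. Of the list, 19 of 33 were higher, 1 were lower and 13 did not pass the threshold (median log2 difference 0.62); p53 signaling, too, was named by the study from these arrays, so this is not independent evidence. Cdkn1a (p21), the inhibitor that stops the cell cycle, had signals of 549.6, 594 and 545 in Tk2+/+ and 2615, 2724 and 2436 in Tk2-/- arrays (log2 difference 2.17, SE 0.15, adjusted p = 2.02e-07), tight within each genotype and far apart between them. Sesn1, a stress-induced inhibitor of mTORC1, rose by 2.07, Trp53inp1, a regulator of autophagy and cell death, by 2.21 and Gadd45a by 1.18 on the log2 scale. Mdm2, which degrades p53, rose (log2 difference 0.55, adjusted p = 0.0119), a call lost without the first or the third Tk2+/+ array (adjusted p = 0.0667 and 0.0527), and Ccng1 (log2 difference -0.32, adjusted p = 0.186) and Rrm2b, both known p53 targets, did not pass.

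Genes of the cell cycle were lower as a list, and most of the genes called lower were genes of mitosis. The study named the cell cycle among the lower pathways from these same arrays, so the direction is not independent evidence. Of the 43 mitosis genes, 35 were lower, 0 higher and 8 did not pass (median log2 difference -0.90), and for 39 all Tk2-/- arrays lay below all Tk2+/+ arrays. Over all genes, 10.9% were lower and 18.8% had all Tk2-/- arrays below all Tk2+/+ arrays. Ccna2 (cyclin A2) read 312, 224 and 159 in Tk2+/+ and 10.6, 49.1 and 18.7 in Tk2-/- arrays (log2 difference -2.61, SE 0.32, adjusted p = 3.41e-05), and Top2a, which untangles chromosomes, 187, 117 and 94.8 and 9.36, 25.9 and 8.84 (log2 difference -2.27, SE 0.27, adjusted p = 2.45e-05). In both genes the first Tk2+/+ array was the highest of its genotype, and the second Tk2-/- array the highest of its own. The same order held for nearly the whole list: the summed signal of the mitosis genes was 5509, 4045 and 3224 in Tk2+/+ and 1639, 2269.8 and 1621 in Tk2-/- arrays, the first Tk2+/+ array was the highest of its genotype for 42 of 43 genes and the second Tk2-/- array for 39 of 43. Without the first Tk2+/+ array 26 of the 43 were lower. By the t-test of the study's methods, with Benjamini-Hochberg adjustment, 1 of the 43 was lower. Mki67, the proliferation marker, fell by 2.21, and Cdk1, the kinase that drives mitosis, by 1.87 on the log2 scale.

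Among genes of earlier steps of the cycle, those of G1 were lower in part. Of the genes of G1 cyclins, kinases and E2F factors 0 higher and 8 lower of 15 passed. Of those of DNA replication 2 were higher, 4 lower and 18 of 24 did not pass, against 11.6% higher and 10.9% lower over all genes. Ccnd1 (cyclin D1), which carries growth signals into the cycle, read 587, 559 and 481 in Tk2+/+ and 95.8, 73.0 and 64.2 in Tk2-/- arrays (log2 difference -2.58, SE 0.12, adjusted p = 4.53e-09), without overlap. Mcm5, of the replicative helicase, fell by 1.31, whereas Pcna, the sliding clamp of the polymerases, overlapped between genotypes (log2 difference 0.11, adjusted p = 0.675). Among the brakes, the pocket protein genes Rb1 and Rbl2 rose by 0.87 and 1.28 on the log2 scale, and Cdkn1c (p57) fell by 1.34. The promoters of the mitosis list shared letters that the lists did not use: the CHR element (TTTGAA or TTCGAA) was in 31 of the 37 with a promoter in the table (83.8%) and the CCAAT box (CCAAT) in 28 (75.7%), against 16.8% and 38.3% of the promoters of all genes tested, both strands searched in the same 300 bases. Both were in 27 of 37 (73.0%), against 6.89% over all genes. They were in 15.1% of the promoters of the genes at least 2-fold lower, a group that holds 18 genes of the mitosis list. Over all genes called lower the share was 7.85%. The E2F site (TTTCGCGC, TTTGGCGC or TTTCCCGC) was in 9 of 20 promoters of the replication genes (45.0%), in 2.73% of all and in 2.45% for the genes at least 2-fold lower. The 250 bases before the start of Cdk1, of Ccnb2 (cyclin B2, chosen after its values were seen, -1.99) and of Plk1, a mitotic kinase (-1.42), are shown for these elements (RefSeq, GRCm38.p6, 5′ to 3′ on the gene's strand), with CCAAT and CHR letters of either strand in capitals. The CHR letters of Plk1, and another CHR match of Ccnb2, lie after the start, outside the bases shown.
Cdk1 chr10:69352913-69353162, minus strand: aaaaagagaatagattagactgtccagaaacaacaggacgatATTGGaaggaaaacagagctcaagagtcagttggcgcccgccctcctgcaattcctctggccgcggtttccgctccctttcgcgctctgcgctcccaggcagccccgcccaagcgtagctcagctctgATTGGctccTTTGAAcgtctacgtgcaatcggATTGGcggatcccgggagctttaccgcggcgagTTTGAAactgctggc
Ccnb2 chr9:70421555-70421804, minus strand: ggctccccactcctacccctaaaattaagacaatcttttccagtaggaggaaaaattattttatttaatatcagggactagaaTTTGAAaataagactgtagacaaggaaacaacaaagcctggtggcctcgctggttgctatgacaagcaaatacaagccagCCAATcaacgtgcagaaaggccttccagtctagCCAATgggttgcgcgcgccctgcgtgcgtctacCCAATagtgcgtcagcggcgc
Plk1 chr7:122159185-122159434, plus strand: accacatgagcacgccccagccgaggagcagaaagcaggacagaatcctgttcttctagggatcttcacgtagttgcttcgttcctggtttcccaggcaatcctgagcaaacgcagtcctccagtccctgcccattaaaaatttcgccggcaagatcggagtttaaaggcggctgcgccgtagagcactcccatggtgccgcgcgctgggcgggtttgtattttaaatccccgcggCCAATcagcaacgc

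Myogenic genes were lower in part, with the sharpest decrease in a gene of cell fusion. Lower progenitor markers, Pax7 and Myod1 among them, were named by the study from these arrays, so their direction is not independent evidence. Mymk (myomaker), the membrane protein by which myoblasts fuse, read 806, 722 and 646 in Tk2+/+ and 101, 135 and 183 in Tk2-/- arrays (log2 difference -2.28, SE 0.16, adjusted p = 2.02e-07). Myog, the factor of terminal differentiation, was at 322, 234 and 166 and 89.9, 36.3 and 70.9 (log2 difference -1.66, SE 0.23, adjusted p = 9.00e-05), and Myod1, the factor of commitment, at 416, 317 and 271 and 262, 86.7 and 112 (log2 difference -1.17, SE 0.26, adjusted p = 0.00437). None of these groups overlapped, though the first Tk2-/- array of Myod1 came close to the lowest Tk2+/+ array. Megf10, a receptor of satellite cells, fell by 1.24 and Pax7, the factor that marks them, by 0.43 on the log2 scale, while Myf5 (log2 difference 0.17, adjusted p = 0.669) and Myf6 (log2 difference 0.44, adjusted p = 0.0855) did not pass. In the whole list of satellite cell and myogenic genes 5 of 34 were higher, 11 were lower and 18 did not pass the threshold (median log2 difference -0.12); without the first Tk2+/+ array 6 were lower and 2 higher, and 7 were lower without the second Tk2+/+ or the second Tk2-/- array. The call of Pax7 was lost without any of 4 of the 6 arrays, the first 2 Tk2+/+ and the last 2 Tk2-/- ones (adjusted p from 0.0628 to 0.192).

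Most genes of the contractile apparatus did not pass the threshold, and a few isoforms changed. In the sarcomere list 14 of 53 were higher, 4 were lower and 35 did not pass the threshold (median log2 difference 0.14). Actc1, the cardiac actin that fetal muscle also makes, had signals of 6656, 8765 and 6565 in Tk2+/+ and 2411, 2507 and 2420.4 in Tk2-/- arrays (log2 difference -1.56, SE 0.13, adjusted p = 8.82e-07), while Acta1, the adult skeletal actin, read 6419.7, 8683 and 6608 and 8157, 8168 and 7430.5 (log2 difference 0.14, adjusted p = 0.554). Only the former separated the genotypes. The fast myosin heavy chain Myh4 (log2 difference 0.08, adjusted p = 0.832) and the developmental chains Myh3 (log2 difference 0.52, adjusted p = 0.15) and Myh8 (log2 difference -0.21, adjusted p = 0.654) did not pass. At the Z-disc and titin, Ankrd2, a stretch-responsive protein, rose by 1.49 and Tcap by 1.20, and Myoz3, a calcineurin-binding protein of fast fibres, fell by 1.95 on the log2 scale; the probe sets of Tpm3, slow tropomyosin, were called in opposite directions, so its direction is left aside; it is one of the 14 through its brightest probe set, and with the mean of its probe sets it did not pass (log2 difference 0.06, adjusted p = 0.779). Sln (sarcolipin), the inhibitor of the calcium pump, was at 96.9, 48.3 and 44.0 in Tk2+/+ and 895, 438 and 391 in Tk2-/- arrays (log2 difference 2.87, SE 0.86, adjusted p = 0.026). The groups were apart. The SE and the p-value pool the spread of all 12 arrays, hearts included, so they do not measure the spread of these muscle arrays alone. The call was lost without any of the second and the third Tk2+/+ and the first and second Tk2-/- arrays (adjusted p from 0.0541 to 0.0858). At the neuromuscular junction, the receptor kinase Musk rose by 1.12 and the esterase Ache fell by 1.02. The excitation and calcium list gave 6 higher and 8 lower of 37, against 11.6% higher and 10.9% lower over all genes.

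Imprinted genes of the growth network were mostly lower, and the largest such group was a cluster of microRNA genes. Of the imprinted list, 1 of 25 were higher, 13 were lower and 11 did not pass the threshold (median log2 difference -0.38). Mest, a hydrolase gene of mesoderm, fell by 2.90 and Ndn, a growth suppressor, by 1.54 on the log2 scale. On mouse chromosome 12, between the growth regulator Dlk1 and the deiodinase gene Dio3, lie the noncoding RNA genes Meg3 and Rian, read from the maternal copy, and many microRNA genes; these were looked at after their values were seen. Dlk1 read 1364, 927 and 833 in Tk2+/+ and 433, 543 and 536 in Tk2-/- arrays (log2 difference -1.0, SE 0.22, adjusted p = 0.00384), Meg3 2899.5, 1531 and 1981 and 1082, 1478 and 1146 (log2 difference -0.75, SE 0.19, adjusted p = 0.0105), and Rian 122, 36.6 and 72.7 and 15.2, 14.2 and 16.3 (log2 difference -1.47, SE 0.23, adjusted p = 2.44e-04). None of these groups overlapped, though Meg3 did not pass without the first Tk2+/+ array (adjusted p = 0.0541).

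MicroRNAs are short RNAs that pair with messenger RNAs mainly through the seed, bases 2 to 8 of the mature strand, and lower their use. The mature sequences of the 3 cluster members with the largest decreases are shown with the seed in capitals (RefSeq, GRCm38.p6, chromosome 12, plus strand), to identify what the probe sets are named for; the array reads RNA that matches the locus, and the level of the mature strands was not analysed here.
mmu-miR-323-5p: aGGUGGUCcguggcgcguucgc
mmu-miR-323-3p: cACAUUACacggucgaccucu
mmu-miR-377-5p: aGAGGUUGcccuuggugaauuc
mmu-miR-377-3p: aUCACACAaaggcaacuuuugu
mmu-miR-379-5p: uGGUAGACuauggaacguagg
mmu-miR-379-3p: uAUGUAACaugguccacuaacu

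Across the 36 measured microRNA genes of the cluster the table holds 68 mature sequences with 66 different seeds. A seed was shared only by miR-379-3p and miR-411-3p and by miR-376b-5p and miR-376c-5p, which are shown for that reason.
mmu-miR-411-3p: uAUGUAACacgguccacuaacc
mmu-miR-376b-5p: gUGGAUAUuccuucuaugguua
mmu-miR-376c-5p: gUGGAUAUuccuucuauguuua

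Of the 36 microRNA genes, 30 (83.3%) were lower and 0 higher, the log2 difference was negative for all 36, and the median was -1.10 (range -3.75 to -0.26). Of the 256 microRNA genes measured elsewhere in the genome, 6 were lower (2.34%) and 7 higher, with a median of -0.02. Over all genes 10.9% were lower. The microRNA genes elsewhere were dimmer: 123 of the 256 had a mean Tk2+/+ signal under the offset of 16, against 2 of the 36. Such signals leave little room for a fall, so the 2.34% does not compare like with like. Mir323 had signals of 1176, 316 and 641 in Tk2+/+ and 29.3, 33.0 and 32.6 in Tk2-/- arrays (log2 difference -3.75, SE 0.36, adjusted p = 3.96e-06). Mir379 read 87.3, 44.8 and 78.4 against 0.81, 1.67 and 1.53 (log2 difference -2.28, SE 0.15, adjusted p = 8.52e-08), and Mir377 193, 66.3 and 94.9 against 15.8, 4.35 and 6.06 (log2 difference -2.35, SE 0.25, adjusted p = 1.16e-05). No groups overlapped for these 3 genes, and for 33 of the 36 all Tk2-/- arrays lay below all Tk2+/+ arrays. That was so for 35 of the 256 microRNA genes elsewhere and for 18.8% of all genes. The spread within the wild type was wide and ordered alike across the cluster: the first Tk2+/+ array was the highest of its genotype for 36 of 36 genes. Summed over the cluster, the signal was 8553, 2137 and 4947 in Tk2+/+ arrays and 1373, 1167 and 1222 in Tk2-/- arrays. Without the first Tk2+/+ array 25 of the 36 were lower, with a median of -0.71, and without genes of low signal 10 of 12 were. The genes share a locus and may share a transcript, so they are not independent measurements. The median of the genes' mean signals was 54.5 in Tk2+/+ and 14.0 in Tk2-/- muscle, against 8.92 and 8.06 in Tk2+/+ and Tk2-/- heart; both heart medians lay under the offset of 16, so the fall is not compared between the tissues.

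**Figure D4:**
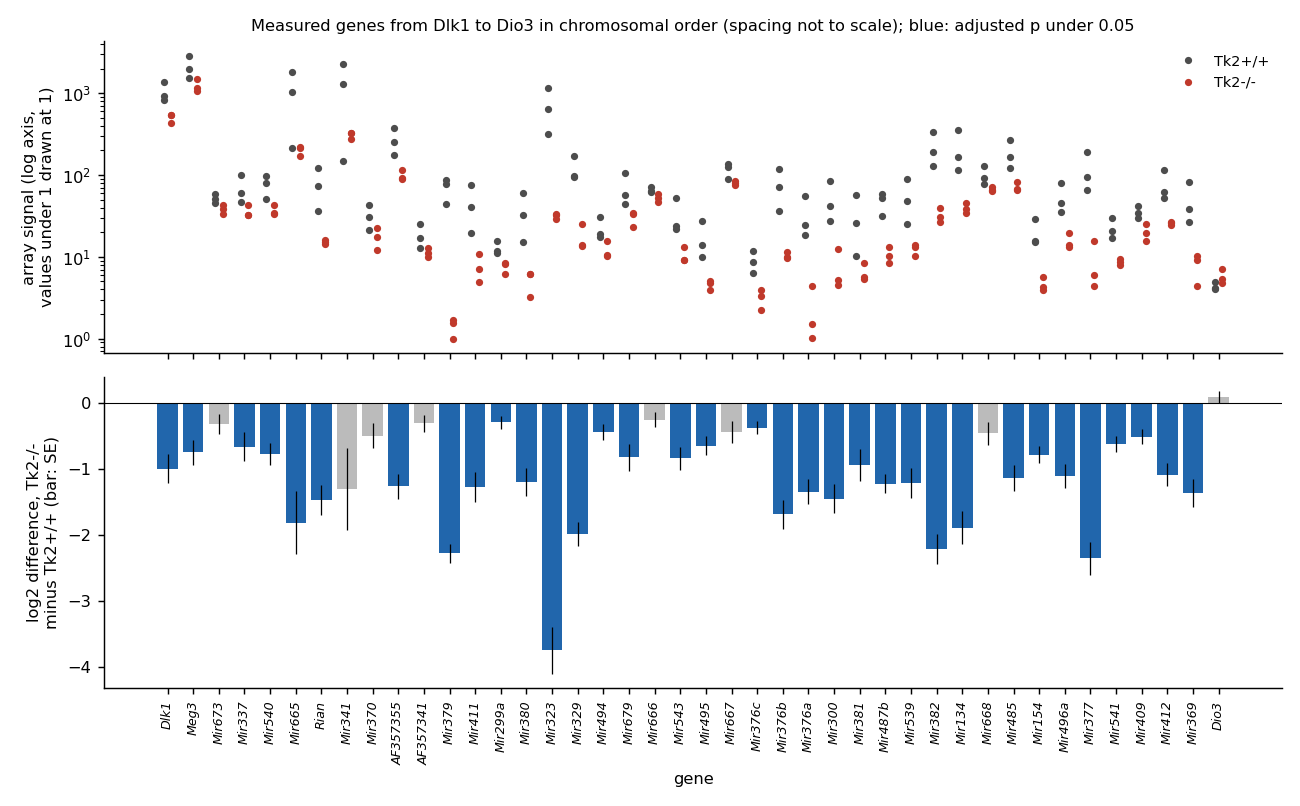
Measured genes from Dlk1 to Dio3 in chromosomal order (horizontal axis, spacing not to scale): above, the signal on each array (log axis, arbitrary units; 3 points per genotype), and below, the log2 difference between Tk2-/- and Tk2+/+ skeletal muscle with its standard error, in blue where the threshold was passed. Every microRNA gene had a negative difference, from -0.26 to -3.75 for Mir323.

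Genes of the extracellular matrix were lower as a list, the collagens among them. Interaction of matrix and receptors was a lower pathway named by the study from these arrays, so this direction is not independent evidence. In the matrix list 7 of 56 were higher, 34 were lower and 15 did not pass the threshold (median log2 difference -0.49), and of the collagens 0 higher and 15 lower of 18 (13 to 14 lower with single arrays left out). Col15a1, a collagen of basement membranes, read 908, 864 and 720.0 in Tk2+/+ and 189, 116 and 136 in Tk2-/- arrays (log2 difference -2.39, SE 0.23, adjusted p = 3.96e-06), and Col1a1, the main fibrous collagen, 3441, 3414 and 3076 and 1422, 1245 and 1126 (log2 difference -1.38, SE 0.15, adjusted p = 1.17e-05). Both genes separated the genotypes by a wide margin. Against this direction, Prg4 (lubricin) rose by 2.75, Timp4, a protease inhibitor, by 1.94 and Lox, which crosslinks collagen, by 1.19 on the log2 scale. Of the fibroblast markers, 2 were higher and 10 lower of 15 measured. Thy1 was lower (log2 difference -2.05, adjusted p = 3.05e-06), and Dcn (decorin), at high signal, was not past the threshold (log2 difference 0.23, adjusted p = 0.158). These markers include matrix genes, Col1a1 among them, so the marker and matrix counts are not independent. The part of fibroblasts in the matrix result was not tested. Endothelial markers gave 1 higher and 5 lower of 23 (8 lower after quantile normalization), against 11.6% higher and 10.9% lower over all genes. Prnd, a prion-related gene of growing vessels, read 758, 756 and 565 in Tk2+/+ and 26.2, 13.8 and 21.6 in Tk2-/- arrays (log2 difference -4.28, SE 0.17, adjusted p = 9.92e-10), Apln, the peptide ligand of tip cells, fell by 3.13 and its receptor Aplnr fell by 1.99, while the pan-endothelial gene Pecam1 overlapped at 823, 1024 and 868 and 899.6, 939 and 855 (log2 difference -0.01, adjusted p = 0.982).

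Among the markers of the remaining cell types that a muscle sample can hold, those of neutrophils were higher in part. Of the 10 neutrophil markers 6 were higher, and their summed signal was 169, 154 and 149.6 in Tk2+/+ and 223, 1616 and 355 in Tk2-/- arrays. With the skeletal muscle arrays fitted alone, 2 of the 10 were higher, and with another variance prior also 2. Leaving out dim genes kept only 1 of the markers, which was higher. Ngp, a neutrophil granule protein, read 9.34, 10.4 and 7.66 and 17.1, 548 and 65.1 (log2 difference 2.19, SE 0.63, adjusted p = 0.0207), so the second Tk2-/- array carried most of the difference. Without that array 3 of the markers were higher, with a median log2 difference of 0.34 in place of 0.82, and 2 or 3 were without any 1 Tk2+/+ array; Ngp itself did not pass without any 1 Tk2+/+ array (adjusted p from 0.0504 to 0.0569). Acute phase genes gave 8 higher and 0 lower of 13, among them Lcn2 and Serpina3n. Macrophage and leucocyte markers gave 4 higher and 1 lower of 24, pericyte and smooth muscle markers 1 higher and 2 lower of 11 (4 lower after quantile normalization), Schwann cell and nerve markers 2 higher and 0 lower of 11, cartilage, bone and tendon markers 1 higher and 3 lower of 21 and keratinocyte markers 2 higher and 1 lower of 10. Brown adipocyte markers gave 1 higher and 1 lower of 9, erythroid markers 0 higher and 0 lower of 7 and cardiomyocyte markers 1 higher and 2 lower of 16. Over all genes the shares were 11.6% higher and 10.9% lower. The tissue label held: the mature fibre markers were at high signal in every array, with 2 higher and 1 lower of 24 measured.

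**Figure D5:**
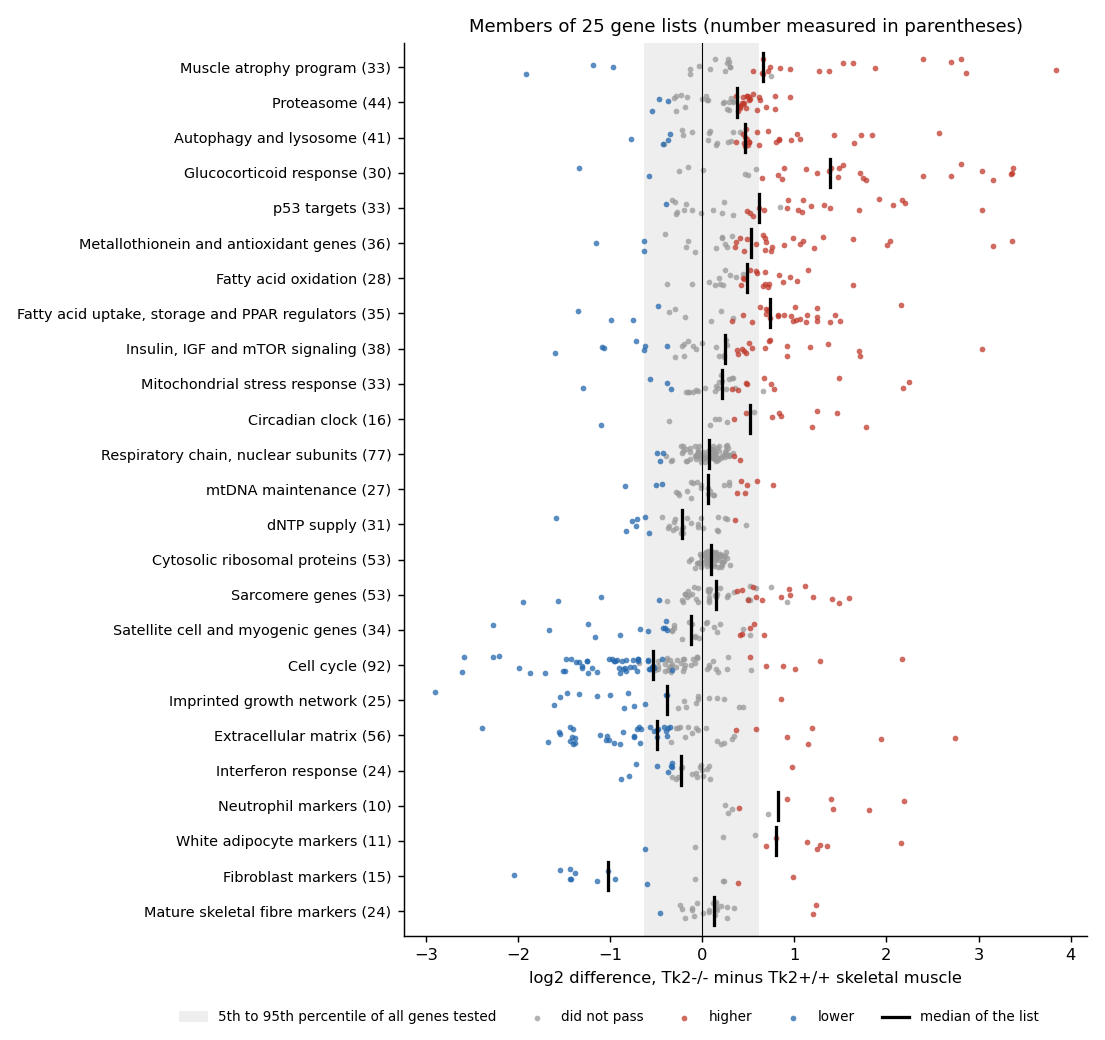
Log2 differences between Tk2-/- and Tk2+/+ skeletal muscle (horizontal axis) of the members of 25 gene lists, 1 point per gene, coloured where the gene was called higher (red) or lower (blue), with a bar at each list's median and a band from the 5th to the 95th percentile of all genes (-0.62 to 0.61). The median of the glucocorticoid list (1.39) lay furthest above the band and that of the fibroblast markers (-1.03) furthest below it.

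The remaining lists held members of both directions, beside 11.6% higher and 10.9% lower over all genes. TGF-beta family genes gave 4 higher and 6 lower of 21, heat shock proteins 4 higher and 3 lower of 19 (7 lower after quantile normalization) and immediate early genes 3 higher and 1 lower of 20. Cholesterol synthesis gave 3 higher and 8 lower of 19: Fdft1 (squalene synthase) read 518, 696 and 592 in Tk2+/+ and 1914, 3346 and 2269.6 in Tk2-/- arrays (log2 difference 2.0, SE 0.16, adjusted p = 9.31e-07), while Dhcr7, of the last step, fell by 1.0. Only 3 to 5 genes of this pathway were lower with single arrays other than the third Tk2+/+ one left out. Interferon-response genes gave 1 higher and 8 lower of 24, and genes of polyamine, creatine and methyl-group metabolism 4 higher and 3 lower of 16. The interferon count fell to 4 lower without the first or second Tk2+/+ or the second Tk2-/- array and to 5 without the first Tk2-/- array, and 7 genes of the last list were higher without the second Tk2+/+ array.

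The genes with the largest separated differences in either direction were partly outside these lists. Slc43a1, a transporter of large neutral amino acids, read 133, 164 and 162 in Tk2+/+ and 1361, 1761 and 1338 in Tk2-/- arrays (log2 difference 3.15, SE 0.11, adjusted p = 3.10e-10). Depp1, a Foxo target that acts on autophagy, was at 162, 98.8 and 159.7 and 1869, 1714 and 1362 (log2 difference 3.43, SE 0.21, adjusted p = 5.77e-08). Both sat among the 15 largest increases, beside Arrdc2, an arrestin-family gene, with 3.50, Cyp2e1, a cytochrome P450, with 3.43 and Serpina3n, a protease inhibitor, with 3.12 on the log2 scale. Among the 15 largest decreases, Gpr50, an orphan receptor related to those of melatonin, read 164, 102 and 88.8 in Tk2+/+ and 6.48, 7.28 and 7.05 in Tk2-/- arrays (log2 difference -2.51, SE 0.16, adjusted p = 6.19e-08). Ky, a peptidase-like protein whose loss damages muscle, was at 1467, 1409.8 and 1113 and 246, 174 and 246 (log2 difference -2.50, SE 0.19, adjusted p = 5.35e-07), and Frzb, a secreted Wnt inhibitor, at 652, 371 and 325 and 92.6, 55.2 and 58.2 (log2 difference -2.42, SE 0.24, adjusted p = 5.81e-06). No groups overlapped for these genes; Cited4, a transcriptional coactivator, fell by 2.66, Tnfaip2 by 2.41, and the little-described genes AW551984 and A930003A15Rik by 2.94 and 3.12.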

How the data were processed

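Total RNA from hind limb skeletal muscle was labelled by the authors with the Ambion WT Expression kit and hybridised to Affymetrix Mouse Gene 1.1 ST arrays, and the deposited values are normalized probe set intensities on a linear scale, made with Affymetrix Expression Console and PLIER per the submitters' processing notes (versions and further settings are not given in the sources used here). The number of arrays limits the precision. The deposited table held 35556 probe sets, of which 21218 carried 1 gene symbol in the platform annotation, 1881 several and 12457 none; only the first kind was used, with the brightest probe set per symbol (18820 genes; of 1386 genes with several probe sets, 5, Tpm3 among them, had probe sets called in opposite directions). Probe sets can also read near-identical gene copies. Samples were grouped by the labels of tissue and genotype, with a different mouse for each array of a tissue; the heart arrays may come from the same mice, which the labels do not tell and the fit does not model.

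From there, log2(signal + 16) was fitted with limma 3.58.1 (R 4.3.3; lmFit and eBayes) as 4 group means over 12 arrays, two-sided, with a threshold of 0.05 on p-values corrected for all 18820 genes after Benjamini and Hochberg; the replicates are few and p-values measure only the spread between these mice. Gene lists (44) were described by counts and medians. The members and lists were chosen with earlier results of these data known. The genes named were Tk2, the 15 largest increases and the 15 largest decreases with separated groups, key genes of the lists, up to 4 members per list with the largest change and its brightest member; others are given as chosen after their values were seen. Alternatives were quantile normalization, median centring, an offset of 1, leaving out dim genes (mean log2 of 6 or less), the mean of probe sets, the 6 muscle arrays alone, another variance prior, array weights, the replicate number as a block, the methods' t-test and each array left out in turn. The script was tested on simulated data. The labels do not tell whether replicate numbers pair the arrays. Correlations of same-numbered deviations were -0.006, 0.095 and 0.082, and those of other numbers ran from -0.135 to 0.072. With 3 arrays per genotype these values cannot settle the pairing. Promoter and microRNA sequences were taken from RefSeq tables. Tables and figures were made with Python 3.11.15, pandas 2.3.3, numpy 2.4.6 and matplotlib 3.10.9.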

Additional observations from a re-analysis of the deposited data

Results flagged for a closer look

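The effect of the genotype differed between skeletal muscle and heart for 19 of the 30 genes with the largest separated changes in skeletal muscle, by the test of that difference (limma, adjusted over all genes), with the deposited values and after quantile normalization within each tissue. The share of all genes with such a difference was not counted, so 19 of 30 stands without a background to judge it by. Values are the log2 difference between Tk2-/- and Tk2+/+ in skeletal muscle minus the same in heart, with the value after quantile normalization in parentheses. Among genes that rose in skeletal muscle, the excess was 3.39 (2.61) for Fbxo32, 3.18 (2.43) for Depp1, 3.16 (2.75) for Slc43a1, 2.87 (2.15) for Mt1, 2.75 (1.97) for Klhl38, 2.62 (2.47) for Cyp2e1, 2.36 (2.25) for Gnmt, 2.26 (1.91) for Lcn2, 2.24 (1.83) for Serpina3n, 2.17 (1.41) for Ddit4, 1.8 (1.46) for Inmt and 1.74 (1.27) for Arrdc2. Among genes that fell, it was -4.15 (-4.42) for Mir323, -3.12 (-3.22) for A930003A15Rik, -2.61 (-2.61) for Gpr50, -2.37 (-2.94) for Frzb, -2.27 (-2.37) for AW551984, -1.46 (-2.12) for Cited4 and -0.74 (-1.22) for Gamt.

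The sizes depended on scaling: the mean signal was 146.8 to 168.4 on the Tk2-/- heart arrays and 227.4 to 242.6 on the Tk2+/+ heart arrays, and each of the 12 increases was smaller after quantile normalization. Gpr50 and A930003A15Rik had mean heart signals under the offset of 16 in both genotypes, which leaves little room for a fall in heart. The genes were chosen for their size in skeletal muscle, which by itself favours a larger difference there, and the test treats heart and skeletal muscle arrays as separate mice, which the labels do not settle.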

How the results depend on the processing

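With each array left out in turn, the genes called higher ranged from 1454 to 2438 and lower from 1359 to 2136 (1359 without Tk2-/- replicate 2), those at least 2-fold higher from 271 to 395 and lower from 286 to 424, and the list members higher from 232 to 327 and lower from 158 to 225 (295 and 210 with all arrays). Median centring gave 3357 higher genes, an offset of 1 gave 513 genes at least 2-fold lower, and the methods' t-test, adjusted by Benjamini-Hochberg, gave 366 higher and 294 lower genes and 69 and 39 list members; at a fold of 2 and an unadjusted p under the same threshold, that test gave 312 higher and 329 lower. With the replicate number as a block, 2133 genes were higher and 1894 lower, 324 and 336 at least 2-fold, and 295 and 193 list members. The labels do not tell whether the numbers pair the mice. Of 240 named genes past the threshold, 82 stayed so in all 16 other settings, and none of the 339 named genes reversed.

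Of sets added after seeing the data, the cluster's microRNA genes lower went from 30 to 10 (of 12 left) without dim genes and to 1 under the methods' t-test with adjustment (25 to 33 with single arrays left out), and branched-chain amino acid genes higher from 14 to 3 under that t-test (12 to 15). Histone genes lower went from 15 to 0 under it and ranged from 8 to 18 with single arrays left out. With 3 arrays per genotype and many dim genes near the offset, small differences could not be resolved.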

Other observations

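Sets looked at after their values were seen add a view of protein and chromatin synthesis. Of 32 replication-type histone genes, 15 were lower and 1 higher in Tk2-/- muscle (median log2 difference -0.50), and 9 were lower without the first Tk2+/+ array, 8 without the second Tk2+/+ array and 9 without the third Tk2-/- array; near-identical histone copies can share probes. Of 74 mitochondrial ribosomal protein genes, 4 were higher and 10 lower (median -0.08), against 11.6% higher and 10.9% lower over all genes. After quantile normalization 6 were higher and 23 lower, so this count depended on the scaling.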
